A study of Mus musculus with 2 samples.

Results

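The genes described here are Hcn2, Hcn3 and Hcn4, which encode subunits of the hyperpolarization-activated cyclic nucleotide-gated (HCN) channels, and Pex5l, which encodes their auxiliary subunit TRIP8b. They were taken by gene symbol and not by a cut on their measured values, although earlier results of these data were known. All 4 were found among the 55536 genes of the gene tables, with 19 of the 141864 annotated transcripts. The samples were left cerebral cortex of 2 male mice aged 2 months, of the B6CASTF1/J hybrid strain, the offspring of a cross between C57BL/6J and CAST/EiJ. Total RNA was sequenced after removal of ribosomal RNA, from 300 ng per library. The labels place both libraries in 1 group, as biological replicates 1 and 2, so no treatment or genotype is compared, and with 1 animal on each side no p-value was computed. The labels number the males separately and share 1 donor record between them, which was taken as a record of the strain.

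HCN channels open when the membrane is hyperpolarized and carry an inward cation current, known as Ih in neurons and as the pacemaker current in the heart. Cyclic AMP binds a domain in the C-terminal part of each subunit and makes the channel easier to open. TRIP8b is a relative of Pex5, the receptor that brings enzymes into peroxisomes, but it is found mainly in brain, where it binds the C-terminal end and the cyclic nucleotide-binding domain of HCN subunits and sets how many channels reach the cell surface. Its N-terminal part differs between splice forms, and forms with different N-terminal parts are known to raise or lower the surface level of the channels. Hcn2 is the widely distributed brain subunit, Hcn4 is the main subunit of the cardiac pacemaker and is also found in the thalamus, and Hcn3 is the least studied of these genes.

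All 4 genes were detected in both animals, at levels that spanned a wide range. Pex5l was highest and Hcn2 followed, and both stood in the upper part of the detected protein-coding genes. Hcn3 and Hcn4 stood far lower. The 3 channel genes are described as they are, and their order and sum refer to these 3 genes and not to all subunits of the channel.

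In build mm10 with the GENCODE M21 annotation, Hcn2 (ENSMUSG00000020331.9) lies on the plus strand at chr10:79716634-79736108 and has 2 annotated transcripts, both coding. Hcn3 (ENSMUSG00000028051.10) lies on the minus strand at chr3:89146074-89160196 and has 4 transcripts, of which 1 is coding. Hcn4 (ENSMUSG00000032338.9) lies on the plus strand at chr9:58823412-58863175 and has 1 transcript, which is coding. Pex5l (ENSMUSG00000027674.16) lies on the minus strand of the same chromosome as Hcn3, at chr3:32949408-33143247, and has 12 transcripts, of which 9 are coding. Its span of 193840 bases compares with 14123 for Hcn3, 19475 for Hcn2 and 39764 for Hcn4.

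The pore of the channel is shown because it is similar in the 3 HCN genes, and similar stretches must be told apart by the reads for the levels to be compared. The 75 coding bases around the selectivity filter are given 5′ to 3′ on the coding strand, from mm10, and capitals mark the codons of the filter signature. The positions are chr10:79728923-79728997 for Hcn2, chr3:89150976-89151050 for Hcn3 and chr9:58855555-58855629 for Hcn4, all exonic.
Hcn2 pore: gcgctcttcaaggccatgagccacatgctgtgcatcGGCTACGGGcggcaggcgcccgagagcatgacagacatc
Hcn3 pore: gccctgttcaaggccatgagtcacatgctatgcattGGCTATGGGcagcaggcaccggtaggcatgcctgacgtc
Hcn4 pore: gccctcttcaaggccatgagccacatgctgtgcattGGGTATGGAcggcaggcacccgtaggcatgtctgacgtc

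Of these 75 bases, 60 were the same in Hcn2 and Hcn3, 63 in Hcn2 and Hcn4, and 67 in Hcn3 and Hcn4. Over the aligned coding sequences the identity was 78.2% of 1535 aligned positions for Hcn2 and Hcn3, 82.8% of 1636 for Hcn2 and Hcn4, and 79.7% of 1536 for Hcn3 and Hcn4. The longest identical run was 33 bases for Hcn2 and Hcn3 and 32 bases for each of the other pairs. Stretches of 31 bases found also in another gene on the same strand were few, at 5 of 3190 in Hcn2 (0.157%), 5 of 4180 in Hcn3 (0.120%), 4 of 6088 in Hcn4 (0.0657%) and 12 of 8997 in Pex5l (0.133%). On the opposite strand, 681 of those of Hcn3 (16.3%) were shared with Pklr and 263 of those of Pex5l (2.92%) with other genes, mostly Gm37459, while Hcn2 and Hcn4 had none. The HCN genes thus shared few such stretches with each other.

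The coding ends of the HCN genes carry the site at which TRIP8b is known to grip the channel tail, and they had a smaller share of identical bases than the pore. The last 36 coding bases, stop codon included, lie at chr10:79735505-79735540 in Hcn2, chr3:89147599-89147634 in Hcn3 and chr9:58860728-58860763 in Hcn4. Capitals mark the last 3 codons before the stop.
Hcn2 end: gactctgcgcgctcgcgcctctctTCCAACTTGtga
Hcn3 end: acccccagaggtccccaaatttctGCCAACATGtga
Hcn4 end: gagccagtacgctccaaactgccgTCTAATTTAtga

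Of the 36 bases, 19 were the same in Hcn2 and Hcn3, 21 in Hcn2 and Hcn4, and 17 in Hcn3 and Hcn4. Of the 9 bases in capitals, 7, 6 and 4 were the same in those pairs. These codons read Ser-Asn-Leu in both Hcn2 and Hcn4 and Ala-Asn-Met in Hcn3. The count of identical bases thus does not order the pairs as the encoded residues do. The coding sequences run to 863 codons in Hcn2, 779 in Hcn3 and 1201 in Hcn4. The GC content of the Hcn2 transcript was 65.4%, higher than in 99.2% of 58797 coding transcripts, whose median was 50.4%. It was 58.0% in the coding transcripts of both Hcn3 and Hcn4 and 51.9% in Pex5l-206. Whether GC content affected the level of any of them was not tested.

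Pex5l is built differently, with 3 annotated regions in which transcription starts and 2 exons that are optional in the annotation, and the pieces that set its forms apart are shown here because the results below turn on them. The first sequence is the join in transcript Pex5l-206 between its upstream first exon, whose 21 coding bases are in capitals and end the exon, and the next exon, an exon of 112 bases at chr3:33014965-33015076 that most forms share. The second is the stretch that opens the coding sequence in the middle-start forms of 615 and 650 codons (chr3:33081976-33082068), with its start codon in capitals. The others are the optional exons of 72 bases (chr3:33080465-33080536) and 105 bases (chr3:33024696-33024800), in capitals throughout, all 5′ to 3′ on the minus strand.
Upstream start joined to the shared exon: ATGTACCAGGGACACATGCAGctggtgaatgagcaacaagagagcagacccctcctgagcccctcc
Middle start: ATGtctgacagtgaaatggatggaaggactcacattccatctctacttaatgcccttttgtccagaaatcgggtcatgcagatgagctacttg
Exon of 72 bases: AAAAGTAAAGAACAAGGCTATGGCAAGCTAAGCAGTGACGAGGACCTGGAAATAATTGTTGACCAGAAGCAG
Exon of 105 bases: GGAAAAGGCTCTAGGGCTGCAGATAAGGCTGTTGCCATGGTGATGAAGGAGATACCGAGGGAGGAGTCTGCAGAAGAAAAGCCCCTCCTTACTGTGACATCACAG

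Levels are given in TPM, a transcript abundance that is corrected for transcript length, so that genes can be compared with each other. Each library was quantified by the authors in 2 ways, here called the main and the other quantification. The main tables sum to 33007629 expected counts for replicate 1 and 32142918 for replicate 2. Their differences exceeded sampling noise, and they were treated as separate samples. Spike-in RNAs held 0.428% and 0.345% of the counts. The reads were counted on the C57BL/6J reference although each animal also carries a CAST/EiJ copy, and what that costs in counts was not tested.

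Pex5l measured 113.85 TPM in replicate 1 and 118.41 TPM in replicate 2, with a mean of 116 ± 3.22 TPM (SD, n = 2), from 6875 and 6923 expected counts. In each library it ranked 790th and 720th of the 12921 nuclear protein-coding genes detected at 1 TPM or more in both animals, above 93.9% and 94.4% of them. The median of those genes was 15.9 TPM. Pex5l thus stood among the higher detected genes in both animals, and the 2 values lay close together. Its paralog Pex5, the peroxisomal receptor itself, measured 27.91 and 29.11 TPM (28.5 ± 0.849, SD, n = 2), below Pex5l in both libraries.

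Hcn2 was the highest of the 3 channel genes. It measured 62.97 TPM in replicate 1 and 57.08 TPM in replicate 2, a mean of 60.0 ± 4.16 TPM (SD, n = 2), from 4244 and 3776 expected counts. That placed it above 86.7% and 85.2% of the detected genes. Hcn2 was lower in replicate 2, the only 1 of the 4 genes for which the animals differed by more than counting error, as described further on.

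Hcn3 measured 5.86 and 6.56 TPM (6.21 ± 0.495, SD, n = 2), from 363 and 334 expected counts, and stood above 23.0% and 25.3% of the detected genes. Hcn4 measured 2.82 and 2.92 TPM (2.87 ± 0.0707, SD, n = 2), from 370 and 375 expected counts, above 10.7% and 11.04% of them. Both channel genes therefore lay below the median of the detected genes in both animals. The 2 values of each of the 4 genes did not overlap those of any other of the 4.

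**Figure D1:**
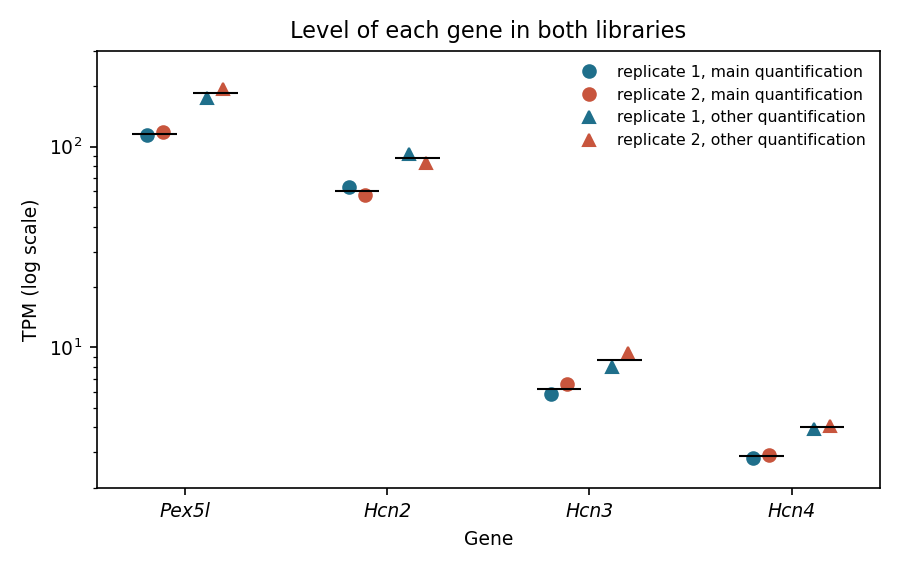
TPM (log scale) of the 4 genes in each library, with circles for the main and triangles for the other quantification and a bar at the mean of the 2 animals. The order from Pex5l through Hcn2 and Hcn3 to Hcn4 is the same in both libraries and both quantifications, with main means of 116, 60.0, 6.21 and 2.87 TPM.

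The plot of levels by gene shows how the steps between neighbours compare with the distance between animals. Pex5l was 1.94 ± 0.188 times Hcn2 (SD, n = 2; 1.81 and 2.07 in the libraries). Hcn2 was 9.72 ± 1.45 times Hcn3 (10.7 and 8.70) and 20.9 ± 1.97 times Hcn4 (22.3 and 19.5). Hcn2 therefore supplied most of the RNA of the 3 channel genes, 86.8 ± 1.505% of their summed TPM, with 9.02 ± 1.19% from Hcn3 and 4.16 ± 0.319% from Hcn4. The sum was 71.65 TPM in replicate 1 and 66.56 TPM in replicate 2.

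Pex5l exceeded the 3 channel genes together, at 1.68 ± 0.134 times their sum (1.59 and 1.78). It was 18.7 ± 0.974 times Hcn3 and 40.5 ± 0.127 times Hcn4. These are ratios of RNA and not of protein.

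The step between Hcn3 and Hcn4 was the least settled of the order. Hcn3 was 2.16 ± 0.119 times Hcn4 in TPM (2.08 and 2.25), but in counts, without regard to length, the order was the other way, at 0.936 ± 0.0639 (0.981 and 0.891). The Hcn4 transcript is longer, with an effective length of 6019 bases against 2846 and 2383 for Hcn3. When only the coding transcript of Hcn3 was set against Hcn4, a comparison chosen after seeing the data, the ratio was 1.30 ± 0.126 (1.39 and 1.22), still above 1 in both libraries.

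As deposited, the other quantification gave higher TPM for every one of the 4 genes. Its means were 184 ± 13.0 for Pex5l, 87.7 ± 6.20 for Hcn2, 8.68 ± 0.981 for Hcn3 and 4.00 ± 0.101 for Hcn4 (SD, n = 2). The ratios between genes moved less than the levels, since Hcn3 over Hcn4 was 2.17 ± 0.190 and Hcn2 over Hcn3 was 10.2 ± 1.87. Nuclear protein-coding genes held 46.6% and 45.6% of all TPM in the main quantification but 76.0% and 76.4% in the other. When both were rescaled to those genes alone, the direction turned, and the other quantification was lower for all 4 genes, with means of 242 against 252 for Pex5l, 115 against 130 for Hcn2, 11.4 against 13.5 for Hcn3 and 5.25 against 6.23 for Hcn4. The order of the genes did not differ between the 2 quantifications.

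For orientation, the nuclear protein-coding gene nearest to each in level was found by Euclidean distance in log2(TPM + 1) over the 2 libraries and both quantifications. It was Grin2a for Pex5l, a subunit of the NMDA glutamate receptor, at 112.69 and 121.16 TPM and a distance of 0.0736. Ndufs8, a subunit of mitochondrial complex I, was nearest to Hcn2 at 63.9 and 56.8 TPM, a distance of 0.0421. Ccdc117 was nearest to Hcn3 at 5.84 and 6.51 TPM (0.0576), and Amer1, a membrane-bound regulator of Wnt signalling, was nearest to Hcn4 at 2.83 and 2.89 TPM (0.0131). With 2 animals this likeness is one of level only.

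Genes that overlap the members can share reads with them, and none that overlaps was above 3.06 TPM. Hcn2 ends 15 bases from the end of Polrmt on the opposite strand, which was at 23.0 and 22.8 TPM. Hcn3 overlaps the end of Pklr on the opposite strand, which is listed at 0 TPM in both libraries. Pex5l is overlapped by the antisense genes Gm37459 (0 and 0.17 TPM) and 4930419G24Rik (0 in both), by the small nuclear RNA gene Gm23214 (0 in both), and on its own strand within introns by Gm37443 (1.6 and 1.44 TPM) and Gm19445 (2.14 and 3.06 TPM). Hcn4 has no overlapping gene in the annotation. How the counting used strand is not given in the sources used here, so reads from a gene and its antisense partner may not have been told apart.

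Hcn2 and Hcn4 each came from a single transcript in these data. Hcn2-202, of 3195 bases, took 100% of the Hcn2 TPM in both libraries and both quantifications, and Hcn2-201, also of 863 codons but with another arrangement of exons, was listed at 0. Hcn2-201 has only 25 stretches of 31 bases that no other transcript of these genes holds. Hcn4-201 is the only annotated transcript of Hcn4. These genes therefore offered no choice of forms to compare.

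Hcn3 was split between 1 coding and 3 noncoding transcripts, and how large each part was depended on whether TPM or counts were read. The coding transcript Hcn3-201, of 4002 bases, measured 3.93 TPM in replicate 1 and 3.55 TPM in replicate 2, or 67.2% and 54.1% of the gene. The retained-intron transcript Hcn3-203, of 909 bases, measured 1.19 and 1.01 TPM. The processed transcript Hcn3-204, of 627 bases, measured 0.41 and 1.13 TPM, and the retained-intron transcript Hcn3-202, of 533 bases, measured 0.32 and 0.87 TPM. The coding form was lower in replicate 2 while the short forms Hcn3-202 and Hcn3-204 were higher there. They rested on few reads, 3.06 and 8.11 expected counts for Hcn3-202 and 4.75 and 12.77 for Hcn3-204. The posterior SD is a deposited measure of how uncertainly reads were shared among transcripts. It was 4.48 and 5.57 counts for Hcn3-202 and 5 and 5.4 for Hcn3-204. Hcn3-203 had 20.96 and 17.42 expected counts with a posterior SD of 7.35 and 9.25. Hcn3-202 was thus not well separated from 0 in either animal, nor Hcn3-204 in replicate 1 or Hcn3-203 in replicate 2.

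The noncoding forms made up 32.8% and 45.9% of Hcn3 TPM but only 7.93% and 11.5% of its expected counts. Over 9780 protein-coding genes that have both coding and noncoding transcripts, the median noncoding share of TPM was 13.0% and 15.1%. Hcn3 had 25.6% and 44.0% against medians of 15.01% and 17.2% in the other quantification. TPM divides reads by length, so a short transcript takes a larger share of TPM than of counts. In counts, Hcn3-201 held 90.3% of the gene on average. The other quantification listed Hcn3-202 at 0 in both libraries and gave Hcn3-201 74.4% and 56.0% of the TPM.

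**Figure D2:**
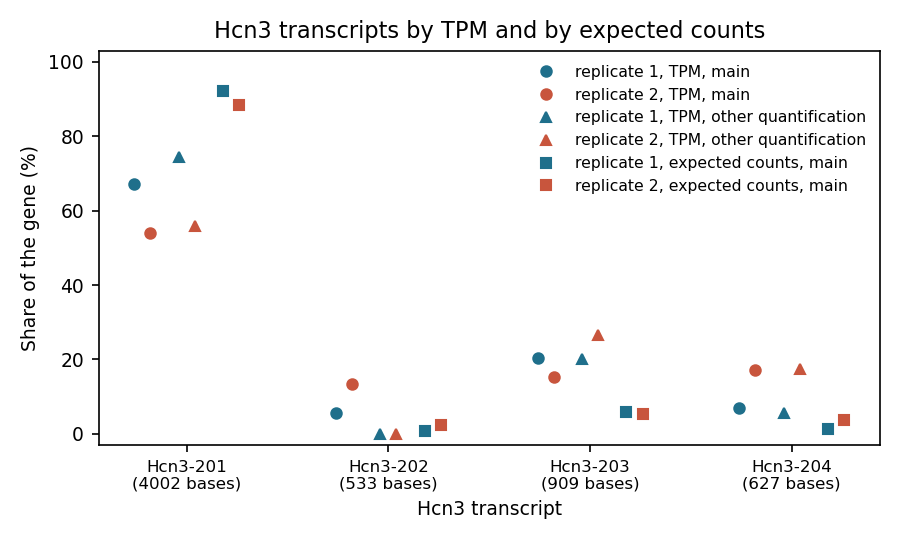
Share of Hcn3 (percent) taken by each of its 4 annotated transcripts, whose length is under each name; circles and triangles are shares of TPM in the main and the other quantification, squares are shares of expected counts, and colours are the 2 animals. Hcn3-201 holds 67.2% and 54.1% by main TPM and most of the gene by counts, and the short forms are larger by TPM than by counts.

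Pex5l had the most varied set of transcripts. Of its 12, Pex5l-206, which begins at the upstream start, was highest in the main quantification, at 43.70 TPM in replicate 1 and 41.35 TPM in replicate 2 (38.4% and 34.9% of the gene). Pex5l-205, which begins at the middle start, followed with 27.92 and 21.06 TPM (24.5% and 17.8%). Pex5l-209, from the same region, measured 11.99 and 17.65 TPM (10.5% and 14.9%). Among these 3 coding forms, Pex5l-206 and Pex5l-205 had lower values in replicate 2 and Pex5l-209 a higher one. For each of them the deposited TPM intervals of the animals overlapped, so these directions are not well separated. In the other quantification Pex5l-206 measured 48.60 and 39.14 TPM and Pex5l-209 43.95 and 46.97 TPM.

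The other coding forms of Pex5l were lower in the main quantification. Pex5l-211 measured 5.79 and 6.03 TPM, and Pex5l-204 measured 2.50 and 6.56 TPM. Pex5l-204 was at 19.95 and 25.89 TPM in the other quantification, above Pex5l-205 at 15.50 and 12.87 TPM. Pex5l-203 was listed at 0 in the main quantification but at 13.45 and 24.73 TPM in the other. Pex5l-201, Pex5l-208 and Pex5l-210 were listed at 0 in the main quantification. The other quantification listed Pex5l-208 at 1.27 and 0.35 TPM.

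Transcripts without a coding sequence took 19.3% and 21.8% of Pex5l TPM, against the medians of 13.0% and 15.1% over genes with both kinds. In the other quantification the share was 14.6% and 18.5% against medians of 15.01% and 17.2%, so Pex5l stood above the median there in replicate 2 only and close to it in both. The largest was Pex5l-202, a retained-intron transcript, at 14.01 and 12.42 TPM. Pex5l-212, also a retained-intron transcript, held 4.37% of the gene on average, and Pex5l-207 measured 3.76 and 7.34 TPM. The coding forms together measured 91.9 TPM in replicate 1 and 92.65 TPM in replicate 2, a mean of 92.3 ± 0.530 TPM (SD, n = 2). They summed to 149.5 and 157.7 TPM in the other quantification.

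**Figure D3:**
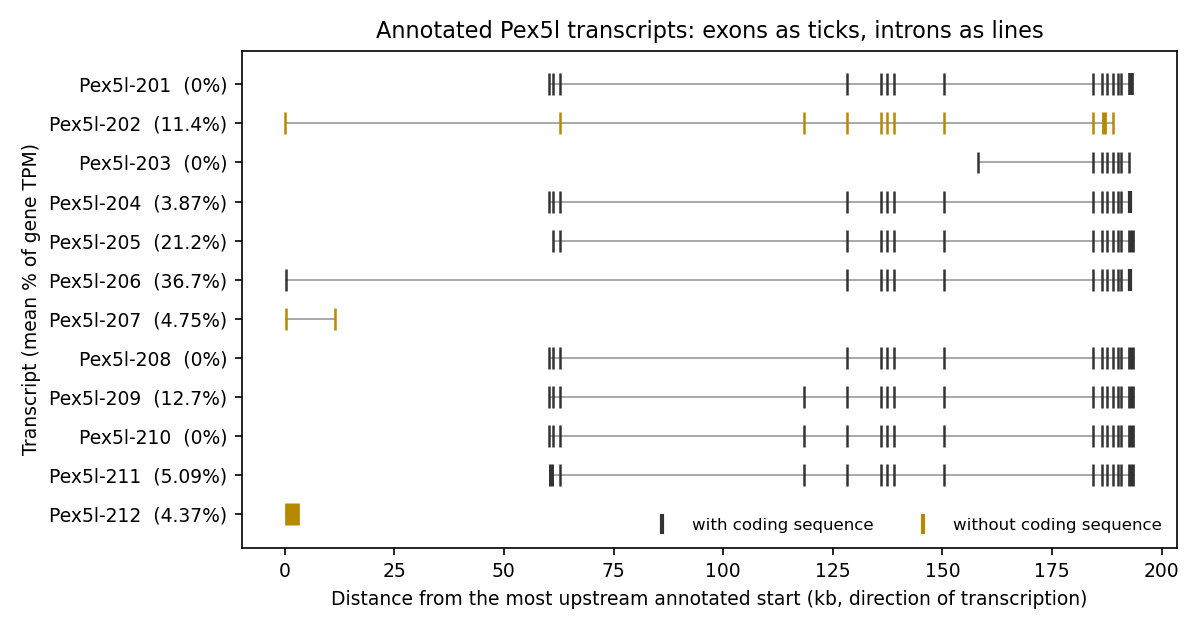
The 12 annotated Pex5l transcripts drawn against distance in kilobases from the most upstream start, in the direction of transcription, with exons as ticks (thin exons widened to be visible), introns as lines, and the mean share of gene TPM in the main quantification beside each name. Pex5l-206, from the upstream start, goes straight to the shared exon, whereas the forms from the middle start carry the exon of 72 bases and some also that of 105 bases.

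The middle first exons begin 60187 bases downstream of the upstream start, and the inner first exon, used by Pex5l-203 alone, 158168 bases downstream, as the map of the transcripts shows. The 4 transcripts from the upstream start took 57.7% and 56.7% of Pex5l TPM in the main quantification, a mean of 57.2 ± 0.696% (SD, n = 2). The 7 from the middle start took 42.3% and 43.3%. The inner start was listed at 0. In this quantification the split between starts differed little between the animals.

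That split depended on the quantification and on which transcripts were counted. In the other quantification the upstream start took 42.4% and 38.7%, the middle start 50.0% and 48.5%, and the inner start 7.68% and 12.8%. Among coding transcripts alone, a restriction chosen after seeing the data, the upstream start is Pex5l-206 by itself and took 46.1 ± 2.07% (SD, n = 2) in the main quantification. The middle-start coding forms took 52.4% and 55.4% there, and 58.5% and 59.5% of the coding TPM in the other quantification, where Pex5l-206 took 32.5% and 24.8%. The middle start thus led among coding transcripts in both quantifications and both animals. Over all transcripts the upstream start led in the main quantification and the middle start in the other.

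By coding sequence, the 9 coding transcripts of Pex5l fall into 5 forms, and they differ in the N-terminal part. The form of 567 codons, which is Pex5l-206, took 47.6% and 44.6% of the coding TPM. The form of 615 codons, which has the middle start and the exon of 72 bases, took 30.4% and 22.7%. The form of 650 codons adds the exon of 105 bases and took 19.3% and 25.6%. The form of 591 codons, Pex5l-204, took 2.72% and 7.08%. The form of 344 codons, Pex5l-203, lacks the N-terminal part of the others and was listed at 0.

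In the other quantification the form of 650 codons was highest, at 34.3 ± 0.537% of the coding TPM (SD, n = 2), and that of 567 codons followed at 28.7 ± 5.43%. The form of 615 codons took 9.80 ± 2.00%, that of 591 codons 14.9 ± 2.17%, and that of 344 codons 12.3 ± 4.73%. The change in mean from one quantification to the other was larger than the distance between the animals for the forms of 344, 567, 591, 615 and 650 codons. The 2 quantifications thus divided Pex5l differently among its coding forms.

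How hard the forms are to tell apart can be read from their sequences. Pex5l-205 and Pex5l-209 hold no stretch of 31 bases that is absent from every other transcript of these genes, and neither do Pex5l-201 and Pex5l-208. Pex5l-206 holds 26 such stretches of 2602, which is 0.999%. The noncoding Pex5l-212 holds 2866 of 3172 and Pex5l-211 holds 616 of 4176. The deposited posterior SD was 113 and 117 counts for Pex5l-206, 160 and 171 for Pex5l-205 and 176 and 165 for Pex5l-209. At gene level the posterior SD was 0 for all 4 genes.

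**Figure D4:**
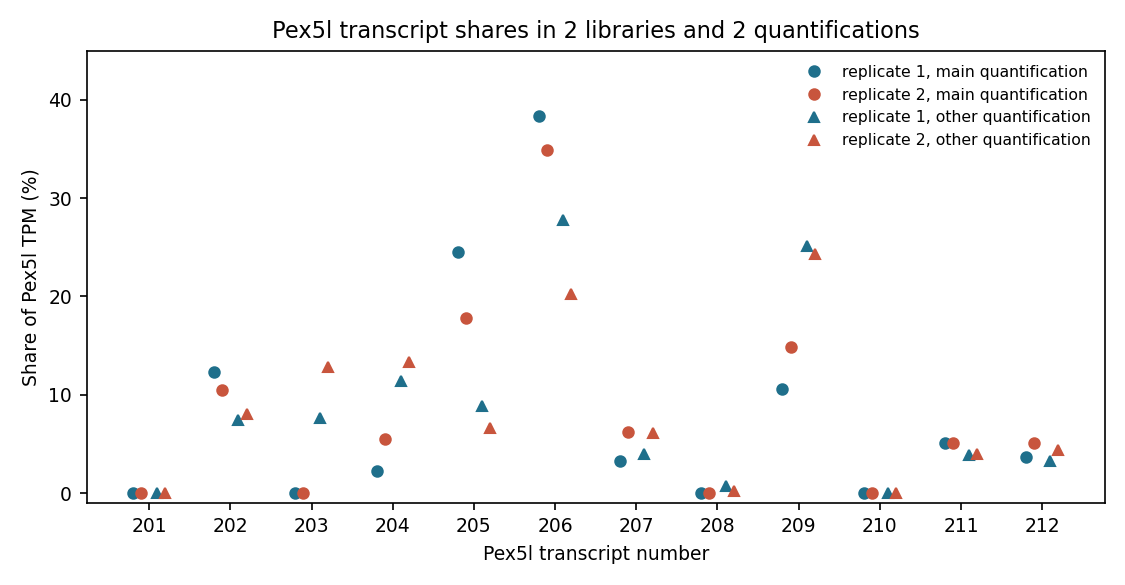
Share of Pex5l TPM (percent) taken by each of its 12 transcripts in each animal (colours), with circles for the main and triangles for the other quantification. Pex5l-206 is highest by the main quantification at 38.4% and 34.9%. In the other quantification it is lower, at 27.8% and 20.2%, and Pex5l-209 is at 25.1% and 24.3%, above it in replicate 2. Pex5l-203, Pex5l-204 and Pex5l-209 are higher and Pex5l-205 lower there than in the main quantification.

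Single exons can be followed across forms. Among transcripts that contain the shared exon of 112 bases, those with the exon of 72 bases took 58.7% and 60.6% of the TPM, and those with the exon of 105 bases took 30.02% and 34.4%. The other quantification gave 67.4% and 73.6% for the former and 42.8% and 47.3% for the latter. All 4 of these transcripts with the exon of 105 bases also carry that of 72 bases. The share of the latter therefore cannot fall below that of the former, and their order is set by the annotation. Both exons are whole multiples of a codon in length, so either can be left out without a shift of the reading frame. Transcripts with a splice site that lengthens a downstream exon from 124 to 127 bases took 15.6% and 18.1%, and 22.1% and 27.9% in the other quantification. In the main quantification these were Pex5l-202, at 14.01 and 12.42 TPM, and Pex5l-204, at 2.50 and 6.56 TPM. Pex5l-202, a retained-intron transcript without a coding sequence, also carries the exons of 72 and 105 bases. The shares in this paragraph are therefore not those of coding forms alone.

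The last exon also differs between the forms. Among transcripts that reach it, the 2 annotated with a last exon of 920 bases, Pex5l-206 and Pex5l-204, took 50.3% and 51.7% of the TPM, and the 5 with 1466 bases took 49.7% and 48.3%. In the other quantification these were 45.8% and 41.2%, and 45.2% and 43.1%. The only coding transcript from the upstream start has the shorter last exon of 920 bases, whereas the middle-start forms have last exons of 920 (Pex5l-204), 1240 (Pex5l-201) or 1466 bases. The start and the last exon are therefore partly tied in the annotation, and their separate parts in the share of Pex5l-206 were not tested.

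Between the animals, the 4 genes differed little. The ratios are log2 of replicate 2 over replicate 1, on counts scaled by edgeR's TMM library sizes. Their 95% intervals cover counting error only, because 1 animal stands on each side. The reads carry no molecular identifiers, and what duplicate reads add to that error was not tested. Of the 18490 genes that averaged 10 counts or more, 333 were at least 2-fold apart, which is 1.8%, and none of the 4 genes was. An interval without 0 was found for 4213 genes, 22.8%, and for 1 of the 4. The 1 was Hcn2, a share near that background.

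Hcn2 had a log2 ratio of -0.14 (95% interval -0.20 to -0.08), or 1.10-fold lower in replicate 2. The median absolute log2 ratio over all genes tested was 0.11. Hcn3 had a log2 ratio of -0.09 (-0.31 to 0.13), Hcn4 of 0.05 (-0.16 to 0.26) and Pex5l of 0.04 (-0.01 to 0.09). The intervals of Hcn3 and Hcn4 are wide because they rest on 334 to 375 counts per library, and a difference of the size seen in Hcn2 would not have been detectable in them at this depth. In the other quantification the log2 ratios were -0.20 for Hcn2, -0.17 for Hcn3, -0.01 for Hcn4 and 0.01 for Pex5l. Hcn3 was lower in replicate 2 by counts but higher there by TPM, with a log2 ratio of 0.16. TPM divides counts by effective length, which for Hcn3 was 2846 bases in replicate 1 and 2383 in replicate 2. That length depends on how reads were shared among its transcripts, of which the short ones rest on few reads.

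**Figure D5:**
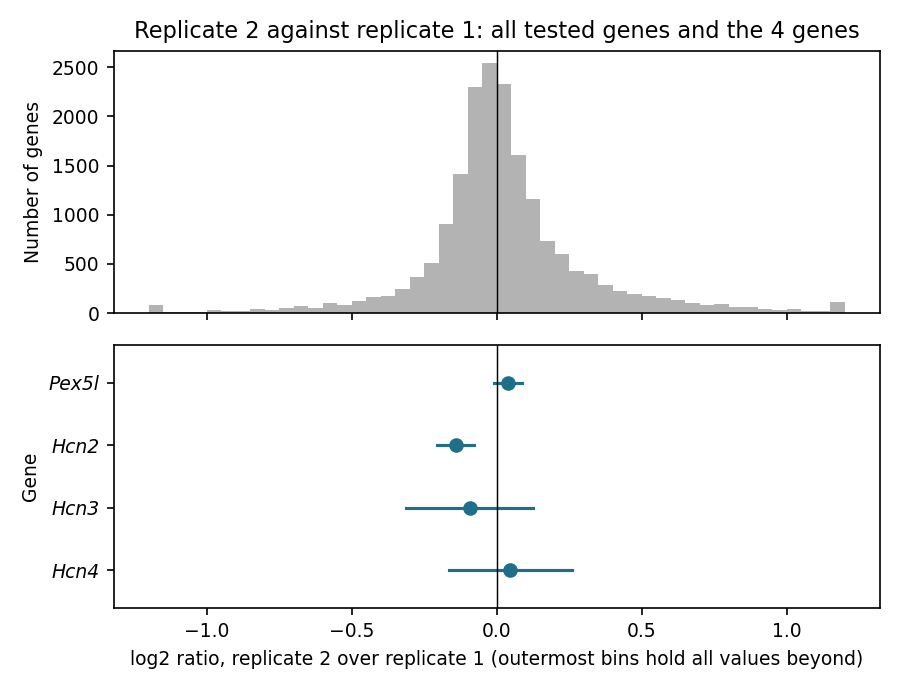
Number of genes by log2 ratio of replicate 2 over replicate 1 for the 18490 genes tested (upper panel), and the ratio of each of the 4 genes with its 95% counting interval (lower panel). The 4 genes lie near 0, and the interval of Hcn2 alone, around -0.14, does not reach it.

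Markers of other tissue and cell types moved between the animals too, and they are given beside Hcn2 because cortex samples can hold different mixtures of cells. In bulk tissue, fewer cells of a type and less RNA per cell cannot be told apart. Beside the 22.8% of all genes that differed in either direction, all 10 striatal markers were lower in replicate 2 by more than counting error, with summed TPM of 374 and 212 and a median log2 ratio of -0.98. Of 10 mature oligodendrocyte markers, 8 were lower (summed TPM 874 and 713), as were 6 of 10 deep layer markers (233 and 209) and 5 of 7 inhibitory neuron markers (561 and 520). Of 6 excitatory neuron markers, 1 was higher and 1 lower (2630 and 2718), and of 6 astrocyte markers 1 was higher and 3 lower (1084 and 1091).

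The thalamic markers summed to 34.0 and 29.1 TPM, with 2 of 5 lower, and the microglial markers to 94.1 and 86.3 TPM, with 1 of 5 lower. All 6 excitatory, 7 inhibitory and 6 astrocyte markers were detected. So were all markers of the other lists named so far, the 10 striatal and 5 thalamic ones included. Of 22015 nuclear protein-coding genes, 12921 were detected in the same way. Detection at 1 TPM therefore does not tell these tissues apart. The part of these cell types in the lower Hcn2 of replicate 2 was not tested. Of 5 cardiac muscle markers 2 were detected, Myl7 was listed at 0 in both libraries, and together they summed to 6.30 and 6.14 TPM beside the 2.82 and 2.92 TPM of Hcn4.

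The genes related to these 4 were taken as whole lists. The cyclic nucleotide-gated channels, the nearest relatives of the HCN channels and best known from photoreceptors and olfactory neurons, were barely present. None of 6 was detected at 1 TPM in both libraries, and they summed to 1.08 and 0.89 TPM. In the main quantification the highest were Cnga4 (0.64 and 0.48 TPM), Cnga2 (0.23 and 0.24 TPM) and Cngb1 (0.13 and 0.10 TPM), whereas in the other Cnga1 and Cnga3 were above Cnga2 and Cngb1. Only Cnga4 had enough counts to compare the animals, with a log2 ratio of -0.42 (-1.29 to 0.37). Each of the 3 HCN genes was above the whole sum of this family in both libraries.

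Of the peroxisomal genes related to Pex5l, Pex14, the docking protein of the receptor, measured 23.42 and 22.27 TPM, and Pex7, the receptor for the other class of peroxisomal enzymes, 10.62 and 11.31 TPM. With Pex5, all 3 were detected. None differed between the animals beyond counting error, where 22.8% of all genes tested differed in either direction, and 3 genes are too few to set against that share. The largest log2 ratio of the 3 was that of Pex7, at 0.11 (-0.09 to 0.30). Pex5l was above each of them in both libraries.

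Of 17 listed partners and regulators of HCN channels and TRIP8b, 16 were matched and 13 were detected. The highest were genes of endocytosis and sorting, namely Ap2m1, a subunit of the clathrin adaptor AP-2, at 397 and 365 TPM, Cltc, the clathrin heavy chain, at 243 and 233 TPM, and Apba2, an adaptor protein of the synapse, at 122 and 125 TPM. Of 14 compared between the animals, 3 were higher in replicate 2 beyond counting error and 5 were lower, where 22.8% of all genes tested differed in either direction. The median log2 ratio of the list was -0.02. The list's median lay close to that of all genes tested, -0.00294. The largest log2 ratio of the 14 was that of Mrvi1, at -0.56 (-1.02 to -0.14), on 114 and 75 counts. Kcne2, a small auxiliary potassium channel subunit, had a larger ratio but rested on 1 and 9 counts and was not compared.

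The adenylyl cyclases make the cyclic AMP that binds HCN channels, and 9 of 10 were detected. Adcy1, the calcium-stimulated cyclase of cortex and hippocampus, was highest at 130 and 140 TPM, followed by Adcy2 at 60.7 and 59.4 TPM and Adcy5, the main striatal cyclase, at 59.5 and 42.8 TPM. In replicate 2, 3 of the 10 were higher beyond counting error and 2 were lower, against 22.8% of all genes in either direction, and the median log2 ratio was 0.06. Adcy5 had a log2 ratio of -0.46 (-0.51 to -0.41) on 8638 and 6153 counts, in the animal in which all 10 striatal markers were also lower, and their part in it was not tested. In the other quantification Adcy5 measured 79.2 and 78.0 TPM, so this difference was not seen in TPM there. The largest ratio of the list was that of Adcy10, at 0.49 (-0.63 to 1.82), on 11 and 16 counts. The median TPM of the list was 23.2, against 60.0 for Hcn2.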

How the data were processed

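Total RNA-seq of left cerebral cortex from 2 mice, in 1 group, was analysed from 3 tables per library. The expected counts, TPM and posterior SD of the gene and first transcript tables were deposited by the authors and made from a transcriptome alignment on mm10 with GENCODE M21, per the file headers and the labels. The second transcript table, the other quantification, holds estimated counts and TPM that were deposited by the authors. For both quantifications the aligner and programs used are not given in the sources at hand. Whether the other quantification used all reads of a library is not given either.

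Levels are deposited TPM with mean ± SD over 2 animals, and p-values were not computed. That spread is between these 2 samples. Expected counts were rounded and scaled with TMM (edgeR 4.0.16, R 4.3.3) with a prior count of 2. Exact conditional binomial (Clopper-Pearson) 95% intervals were computed with scipy 1.17.1 and tested on simulated data. The simulated counts held counting error and set fold changes only, so that test says nothing on variation between animals. Spike-ins were left out, and so were rows that name no gene, which took 1.78e-05% and 2.48e-05% of the counts. Transcripts were grouped by annotated first exon, coding length and exon inclusion. Sequences were read from the GENCODE M21 transcripts, with mm10 positions from the annotation.

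The members and gene lists were chosen with earlier results of these data known. The genes named were the 4 members with every transcript of at least 1% of the gene in either library, the 3 highest genes and the largest log2 ratio of each list, and the gene nearest each member in level. Other genes, such as overlapping neighbours, were added for context. Alternatives were the other quantification, rescaling to protein-coding genes, counts in place of TPM, other size factors, spike-in scaling, pseudocounts, count minimums and each animal alone.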

Additional observations from a re-analysis of the deposited data

How the results depend on the processing

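With 2 animals in 1 group, no paired analysis was possible because no groups are compared. Leaving out either animal leaves the value of the other, which the text gives, and says nothing on stability. The other quantification moved the levels to 87.7 (Hcn2), 8.68 (Hcn3), 4.00 (Hcn4) and 184 TPM (Pex5l), and rescaling TPM to nuclear protein-coding genes moved them to 130, 13.5, 6.23 and 252 TPM, because the sum is then taken over fewer genes. Rescaled in the same way, the other quantification was lower than the main for all 4 genes. The other quantification also gave 1.84 for Pex5l over the sum of the 3 HCN genes, 24.0% for the share of Pex5l-206 and 40.5% for that of the upstream start, and the cause of these 3 shifts was not tested. By counts in place of TPM, Hcn3-201 took 90.3% and Pex5l-206 took 33.7% of its gene. With coding transcripts alone, an alternative chosen after seeing the data, the upstream start took 46.1% and Hcn3 over Hcn4 was 1.30. Scaling by spike-ins shifted the median log2 ratio of all genes to 0.32. It reversed Hcn2 from -0.14 to 0.18 and gave 0.23 for Hcn3, 0.37 for Hcn4 and 0.36 for Pex5l, which relative to all genes are -0.14, -0.09, 0.05 and 0.04. Hcn3 had log2 ratios of 0.14 from TPM with a pseudocount of 1 and 0.16 with 0.1. The genes at least 2-fold apart numbered 1958 with no count minimum and 29 at a minimum of 100, against 333 at the minimum of 10. Depth limits Hcn3 and Hcn4 most, which rest on 334 to 375 counts per library.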
